A study of Mus musculus with 7 samples.

Results

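The neuron and glia genes are 35 mouse genes that were taken by name, by their role in the nervous system: neuronal cytoskeleton and identity, the presynaptic vesicle, transmitter synthesis and loading, glutamate receptors, the postsynapse and synaptic adhesion, a neurotrophin, and markers of astrocytes and of the oligodendrocyte lineage. They are 35 of 49943 annotated genes, of which 21887 are protein-coding. The rule uses gene names and positions and no measured value. Each gene was taken with 5 kb on each side at its mm10 position, and this window was searched for peaks and peak pairs of CTCF in every library. The windows held 181 of the 103945 CTCF sites found in the genome.

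The data were 7 libraries of ChIP-exo 5.0, in which an exonuclease trims immunoprecipitated DNA up to the point where the crosslinked protein blocks it. There was 1 library each of wild-type mouse brain, lung, kidney and liver, made from 100 mg of tissue of adult male mice aged 16 weeks, and 1 library each of 2,700,000, 270,000 and 27,000 liver cells. The study estimated these cell numbers from the wet weight of liver tissue. Its methods describe no mouse material other than the tissues of these mice. The labels name a CTCF antibody for all of them, whereas their extraction protocol names IgG, and formaldehyde is given as 0.3% in the labels and 1% in the study's methods. With 1 library per condition no difference has a replicate check, no p-value is given, and tissue, animal, preparation and library cannot be told apart. All intervals are 95% intervals and cover counting error only. CTCF tags over a gene do not measure its expression, so the members, although they are markers of neurons and glia, cannot be used here to check the tissue labels.

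CTCF is a zinc finger protein that binds a long DNA motif and, together with cohesin, anchors chromatin loops and insulates neighbouring domains. Many of its binding sites are occupied in most cell types, and the less well matched ones vary more between tissues. In neurons it is known above all for its part in the choice of clustered protocadherin promoters. The genes treated here mark the finished cell types of the brain instead: receptors, vesicle proteins, scaffolds, transmitter enzymes, and the proteins of astrocytes and myelin. Brain tissue holds all of these cells together, so a value from the brain library is a mixture over neurons, glia and vessels, and fewer cells of a type cannot be told apart from less binding per cell.

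A tag marks where the exonuclease came to a stop on the DNA. Each deposited list gives strand-specific peaks of 21 bp with at least 2 tags, so a 0 here means that no such peak was listed. Tags outside 13 densely covered bins of 10 kb, the mitochondrial genome and unplaced sequence summed to between 395304 in liver and 1443069 in kidney among the organs, with 924935 in brain, against 5996472, 485877 and 22475 in the libraries of 2,700,000, 270,000 and 27,000 liver cells. Densities below are tags per kb of window per 1,000,000 of these tags, which allows for gene length and depth. Where values follow each other without names, 4 values stand for brain, lung, kidney and liver, and 6 values for these and for 2,700,000 and 270,000 liver cells. In the organ libraries between 76.3% and 91.5% of all peaks had every tag at 1 position, against 33.1% in the library of 2,700,000 cells. Tags in the other peaks are called spread tags. The share of tags at sites with a pair in at least 2 libraries also differed, being 14.7% in brain, 19.7% in lung, 4.46% in kidney, 7.29% in liver and 26.0% in 2,700,000 liver cells, and the part of such differences between libraries in the comparisons below was tested only through the settings given at the end. Over the 35 windows brain held 2252 tags and 83.0% of them were at 1 position, the same quantity being 17.6% for the 12300 tags of 2,700,000 liver cells.

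A site is a peak pair, that is, a forward peak with a reverse peak 10 to 80 bp downstream, in any of the 6 larger libraries, with the tags counted within 100 bp of its centre. The 181 member sites lie close together and their windows overlap, so sites within 200 bp were also chained into 119 loci, of which 102 were inside the gene itself. They fell in 30 of the 35 genes. Most pairs came from the largest library: 176 of the 181 sites had a pair in 2,700,000 liver cells, 35 in brain, 13 in kidney, 10 in 270,000 cells, 9 in lung and 2 in liver. A pair in at least 2 libraries was found at 27 of the 119 loci. Nefl, Nefm, Map2, Mog and Olig1 had no site.

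Promoter sequences show what a site at these genes looks like in letters. RefSeq promoters of GRCm38.p6, the RefSeq release with mm10 coordinates, run from 250 bases before to 50 bases after a start. They were found for 23 of the 35 genes, with 34 starts in all. Only 1 of the 34 (2.94%) held a CTCF site, against 5.23% of 32851 promoters of all genes. It belongs to Nlgn1, which encodes neuroligin 1, a postsynaptic adhesion protein that binds presynaptic neurexin. This is an internal start of the gene, on the minus strand at chr3:26153937-26154236. A site also overlapped the promoter of Mc1r, the melanocortin receptor gene that neighbours Tubb3, on the plus strand at chr8:123406832-123407131. Both are printed 5′ to 3′ on the strand of their gene, since of all promoters of the RefSeq set only these lie at a site in the windows of the members.
Nlgn1 internal promoter: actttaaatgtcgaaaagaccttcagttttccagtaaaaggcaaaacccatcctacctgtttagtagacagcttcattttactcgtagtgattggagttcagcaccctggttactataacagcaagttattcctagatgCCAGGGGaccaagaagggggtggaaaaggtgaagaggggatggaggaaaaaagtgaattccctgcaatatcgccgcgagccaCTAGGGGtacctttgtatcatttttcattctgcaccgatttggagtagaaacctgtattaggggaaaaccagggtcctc
Mc1r promoter, upstream of Tubb3: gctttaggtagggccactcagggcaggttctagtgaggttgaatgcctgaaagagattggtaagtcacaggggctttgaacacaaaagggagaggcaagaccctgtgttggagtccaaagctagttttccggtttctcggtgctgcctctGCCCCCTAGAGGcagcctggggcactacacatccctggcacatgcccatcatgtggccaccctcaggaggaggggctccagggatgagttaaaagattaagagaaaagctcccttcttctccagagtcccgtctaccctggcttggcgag
The capitals mark matches to parts of the CTCF motif on either strand. In the Mc1r promoter they are CCNNNAGNNGGC, read on the reverse strand, at chr8:123406982-123406993. In the Nlgn1 promoter they are the shorter CNAGGGG, a pattern chosen after this sequence had been seen, at chr3:26154091-26154097 and chr3:26154009-26154015. The longer pattern was in 8.61% of all promoters and in 38.6% of those with a site, and in 1 of the 34 member promoters, a start of Bdnf without a site. The shorter was in 20.4% of all promoters, in 33.8% of those with a site and in 10 of the 34. Such a match is only a description of letters.

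In the Nlgn1 promoter the strongest stops of 2,700,000 liver cells were a forward peak of 43 tags at position 26154003 and a reverse peak of 38 tags at 26154041, which are 38 bp apart and lie on either side of the second match. The promoter held 19 tags in brain and 21 in lung, 0 in kidney, 0 in liver, 175 in 2,700,000 and 0 in 270,000 liver cells. Brain and lung thus had tags at this start and the other organs had no listed peak. The brain tags there were spread tags, while those of lung were all in peaks of 1 position. In the Mc1r promoter the strongest stops of 2,700,000 cells were at 123406975 with 93 tags on the forward and at 123407018 with 16 tags on the reverse strand, 43 bp apart, with the match between them. It held 11 tags in brain and 18 in lung, 10 in kidney, 8 in liver, 185 in 2,700,000 and 8 in 270,000 cells, so every one of these libraries had tags there. Brain tags were listed in 1 further member promoter, that of Rbfox3, with 2 tags.

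CTCF density in brain over the neuron and glia genes lay around that of other genes. The median over the 35 members was 0.426 tags per kb per 1,000,000 tags in brain, against 0.442 over all protein-coding genes. For lung the medians were 0.332 and 0.425, for kidney 0.448 and 0.443, and for liver 0.399 and 0.414. In 2,700,000 liver cells the members' median was 0.630 against 0.326. Among the members the brain densities ranged over more than an order of magnitude. Gfap, the intermediate filament protein of astrocytes, was the highest at 3.16 (2.40 to 4.08), followed by Slc17a7, the vesicular glutamate transporter, at 2.29 (1.68 to 3.04) and Nrgn, the calmodulin-binding protein neurogranin, at 1.84 (1.25 to 2.61). Neighbours in this order have overlapping intervals, while those of Gfap and Nrgn also overlap, at their ends. Among genes with tags the lowest were Syn1, the vesicle protein synapsin I, at 0.138 (0.063 to 0.262), Aqp4, the water channel of astrocyte endfeet, at 0.171 (0.056 to 0.399), and Gad2, a GABA-synthesising enzyme, at 0.196 (0.110 to 0.323). Olig1, a transcription factor of the oligodendrocyte lineage, was listed at 0 in brain and liver, with 8 tags in lung and 5 in kidney.

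**Figure D1:**
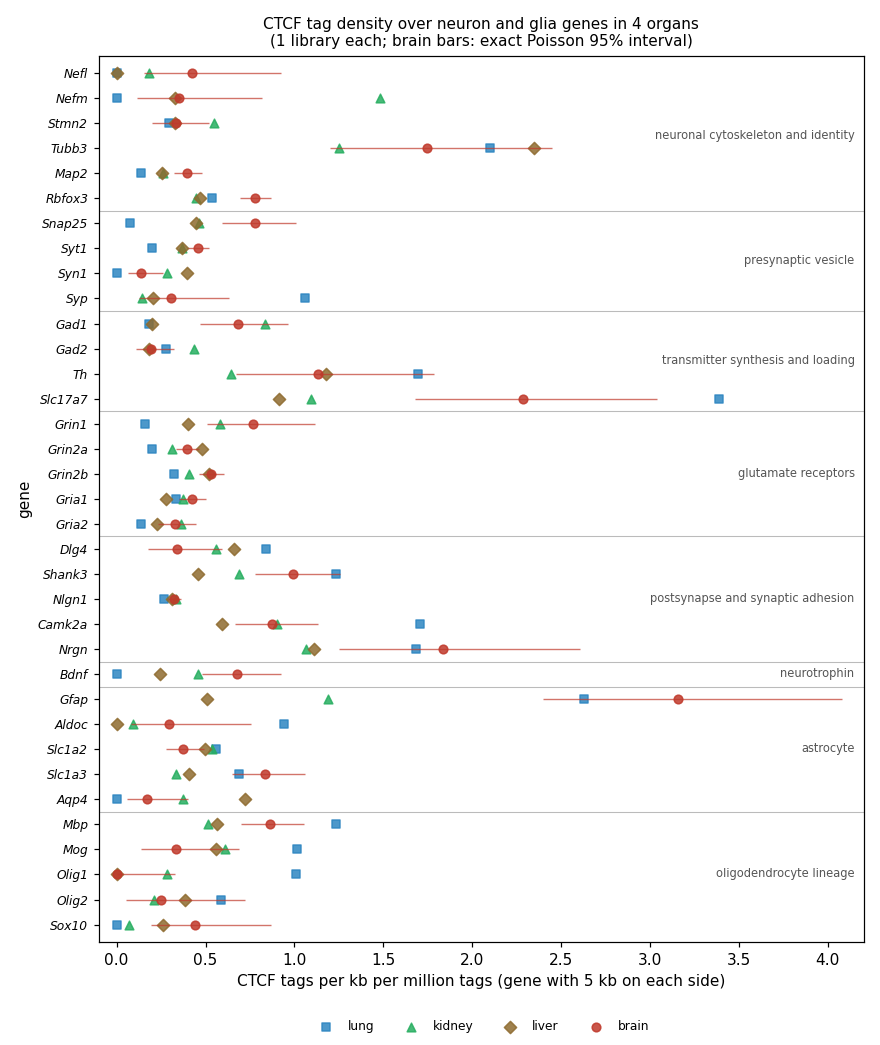
CTCF tag density of each of the 35 neuron and glia genes, on the horizontal axis in tags per kb per 1,000,000 tags over the gene with 5 kb on each side, in brain (circles, bars: exact Poisson 95% interval), lung (squares), kidney (triangles) and liver (diamonds), grouped by role. Brain is highest for Gfap at 3.16 and most of its values lie among those of the other organs.

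Brain, the tissue that these genes are markers of, was compared with the other organs gene by gene. No member with enough tags to be compared had a brain density at least 2 times that of the highest other organ. Nefl, with 2.34 times the next organ, held only 10 tags over the 4 organs and was left out. Of the 30 members with at least 20 tags over the 4 organs, 0 were past this limit, where 3.11% of 30107 genes were. The number with at most 0.5 times the density of the lowest other organ was also 0 of 30, where 6.23% of all genes were. Brain was the highest of the 4 organs for 11 of the 30 members, where this holds for 21.9% of all genes tested. Lung was highest for 9, where it was for 39.6% of all genes, kidney for 6 (19.8%) and liver for 4 (18.8%). The 11 genes were Map2, Rbfox3, Snap25, Syt1, Grin1, Grin2b, Gria1, Nrgn, Bdnf, Gfap and Slc1a3. The nearest to the 2-fold limit were Snap25, a SNARE protein of vesicle fusion, with 1.68 times the next organ, and Map2, a microtubule-associated protein of dendrites, with 1.53 times. In the other gene lists used below, brain was highest for 14 of 35 other neural genes tested (40%). It was highest for 26.9% of the liver, 14.8% of the kidney and 15.4% of the lung genes tested. The count of genes highest in brain was not recomputed under other settings.

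Snap25 had 57 tags in brain and 4 in lung, with 53 in kidney and 14 in liver, and densities of 0.780 (0.591 to 1.01), 0.078, 0.465 and 0.448. Brain thus had the highest density and lung was far below the others. The ratio of brain to liver, 1.74 (0.957 to 3.38), has an interval that spans equality. Of the 57 brain tags 87.7% were at 1 position, and the part of such tags in the result was not tested for single genes other than by leaving them out. Map2 had 102, 25, 104 and 28 tags in the same order, with densities of 0.398 (0.324 to 0.483), 0.138, 0.260 and 0.255. It has no site, and 94.1% of its brain tags were at 1 position. Gfap had 58, 34, 34 and 4 tags, with densities of 3.16, 2.63, 1.19 and 0.509, so that brain and lung were close and kidney and liver lower. Of its lung tags 94.1% were at 1 position, against 67.2% of its brain tags.

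Among the neuronal cytoskeleton and identity genes, Tubb3, the neuronal beta tubulin, stood at 1.74 (1.20 to 2.45) in brain, 1.25 in kidney, 2.35 in liver and 2.10 in lung, all within the brain interval. Rbfox3, the splicing regulator known as NeuN, had 0.779 (0.694 to 0.870) in brain, 0.469 in liver, 0.537 in lung and 0.448 in kidney, so that the brain interval lay above the values of the other 3. Stmn2, a regulator of microtubules in growing axons, had 0.331 (0.199 to 0.517), 0.297, 0.547 and 0.326. The neurofilament genes Nefl and Nefm had few tags, 6 and 5 in brain, and the 33 tags of Nefm in kidney were all at 1 position.

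Of the presynaptic vesicle genes, Syt1, the calcium sensor of release, had 0.457 (0.398 to 0.521) in brain and 0.197 in lung, with 0.368 in kidney and 0.367 in liver. Brain was the highest by a small margin, and 98.2% of the 221 brain tags were at 1 position. Syp, the vesicle membrane protein synaptophysin, had 0.307 in brain, 0.140 in kidney, 0.205 in liver and 1.06 in lung, with lung alone set apart. Syn1 was listed at 0 in lung and had 0.285 in kidney and 0.395 in liver, both above the brain value.

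The transmitter genes had the most sites for their length of all roles, 11.0 per 100 kb against 3.79 over all members. Th, the rate-limiting enzyme of catecholamine synthesis, had densities of 1.13 (0.670 to 1.79) in brain, 1.18 in liver, 1.69 in lung and 0.644 in kidney. Slc17a7 had 2.29 in brain and 3.39 in lung, with 1.09 in kidney and 0.911 in liver, so that lung was above brain and both were above the other organs. Gad1, the other GABA-synthesising enzyme, had 0.682 (0.467 to 0.963), 0.182, 0.834 and 0.200, brain and kidney being high. None of the 4 genes of this role was highest in brain.

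The glutamate receptor genes are long, with a median window of 329 kb, and had few sites for their length, 2.84 per 100 kb. Grin2b, an NMDA receptor subunit, had 0.529 (0.463 to 0.602) in brain and 0.522 in liver, with 0.320 in lung and 0.410 in kidney. Grin2a, another NMDA receptor subunit, had 0.395 (0.336 to 0.461) in brain and 0.479 in liver. Grin1, the subunit common to NMDA receptors, had 0.768 (0.506 to 1.12) in brain, 0.583 in kidney, 0.399 in liver and 0.162 in lung. The AMPA receptor subunits Gria1 and Gria2 had 0.421 (0.351 to 0.501) and 0.326 (0.233 to 0.444) in brain, against 0.375 and 0.360 in kidney. Across this role the brain value was close to at least 1 other organ, apart from Grin1, whose interval is wide.

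Of the postsynaptic genes, Camk2a, a calcium-dependent kinase of the postsynaptic density, had 0.876 (0.667 to 1.13) in brain, 0.590 in liver, 1.71 in lung and 0.904 in kidney. Shank3, a scaffold, had 0.994 (0.776 to 1.25), 1.23, 0.691 and 0.458. Dlg4, which encodes the scaffold PSD-95, had 0.338 (0.175 to 0.591), 0.841, 0.560 and 0.660, brain being the lowest organ. Nlgn1, the longest window at 921 kb, was nearly level in the organs at 0.324, 0.267, 0.336 and 0.310. Bdnf, the neurotrophin, had 0.676 (0.481 to 0.925) in brain, was listed at 0 in lung, and had 0.456 in kidney and 0.243 in liver, and all 39 of its brain tags were in peaks of 1 position.

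Of the astrocyte genes other than Gfap, Slc1a3, a glutamate transporter, had 0.836 (0.648 to 1.06) in brain and 0.691 in lung, with 0.336 in kidney and 0.409 in liver, while Slc1a2, the main glutamate transporter of astrocytes, was lowest in brain at 0.372 (0.275 to 0.491) against 0.497 to 0.560. Aldoc, a glycolytic aldolase, had 4 brain tags, and Aqp4 had 5. In the oligodendrocyte lineage, Mbp, the myelin basic protein, had 0.861 (0.697 to 1.05) in brain, 0.512 in kidney, 0.567 in liver and 1.24 in lung. Mog, a myelin surface glycoprotein, had 0.334 (0.134 to 0.688), 1.02, 0.612 and 0.558, with brain lowest. The transcription factors Olig2 and Sox10 had 3 and 8 brain tags.

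Loci held 23.7% of the 2252 brain tags of the members, 32.3% of the lung, 8.76% of the kidney and 10.9% of the liver tags, and 65.4% of those of 2,700,000 liver cells. Brain tags were listed at 59 of the 119 loci. Aqp4, Dlg4, Gad2, Gria2, Olig2, Sox10, Syn1 and Syp, 8 genes, had loci but no brain tags at any of them. At the other end, Gad1, Gfap, Slc1a3 and Tubb3 had brain tags at each of their 3 loci and Snap25 at both of its loci.

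The locus with most brain tags was upstream of Gfap, 3738 bp from its start at chr11:102900838-102901188, in the long noncoding RNA genes Gm34560 and Gm39395. It held 31 tags in brain and 20 in lung, 9 in kidney, 2 in liver, 158 in 2,700,000 and 9 in 270,000 liver cells. Scaled to 1,000,000 tags, brain and lung were level, at 33.5 (22.8 to 47.6) and 30.7, above kidney at 6.24 and liver at 5.06. All 20 lung tags there were in peaks of 1 position. Brain had spread tags there, 16 of them within 100 bp of the site at chr11:102901088. The next locus was inside Mbp at chr18:82568864-82569207 with 29, 14, 10, 7, 461 and 24 tags in the same order of libraries. Tags were found there in all 4 organs, as at 9 of the 119 loci (7.56%), where 6.06% of 65242 loci in the genome had them. Close by in the same gene, at chr18:82567797-82567997, the tags were 21, 18, 0, 0, 34 and 5, so brain and lung were high where kidney and liver had no listed peak.

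**Figure D2:**
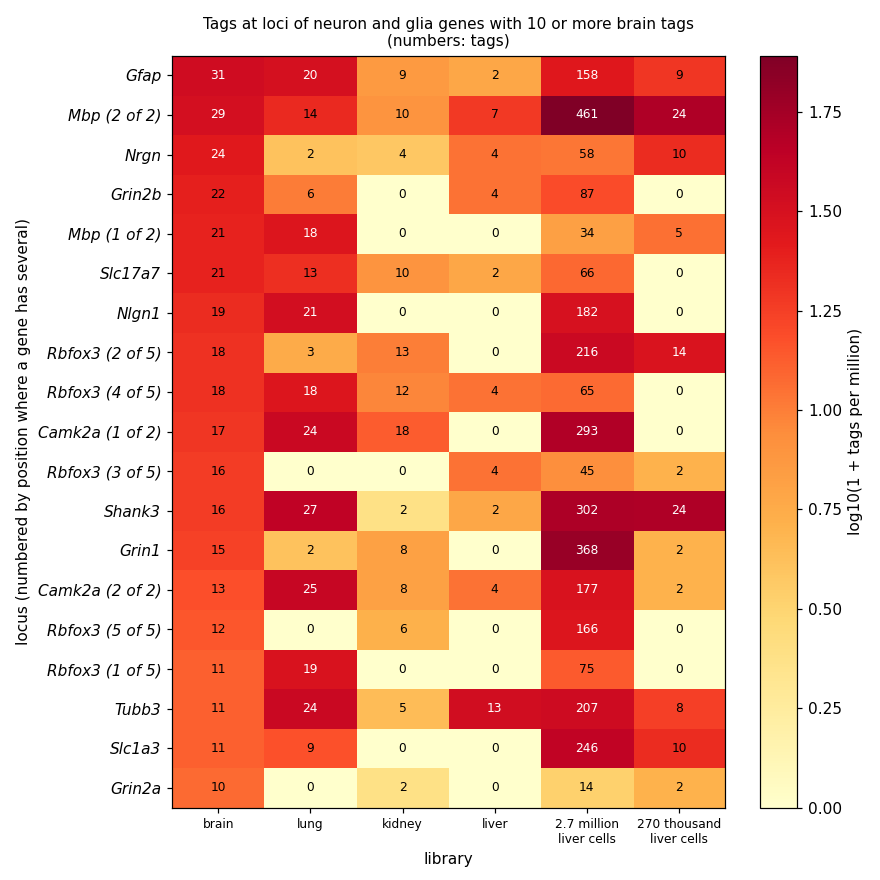
Tags at the 19 loci of neuron and glia genes with at least 10 tags in brain, by library, with colour as log10 of 1 plus tags per 1,000,000 tags and the number of tags printed in each cell. Loci run from most to fewest brain tags, from 31 at Gfap to 10 at Grin2a, and lung has tags at 16 of them, kidney at 13 and liver at 10.

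Of the 19 loci with at least 10 brain tags, 6 had at least 2 times the tags per 1,000,000 of every other organ, or 31.6%, against 29.3% of such loci in the genome. Counted as sites, 7 of 33 met this rule where 32.3% of 12824 sites did, so the members were near the genome when counted as loci and below it when counted as sites. The order of the site counts turned when peaks of 1 position were left out: 17 of 24 sites, in Rbfox3, Nlgn1, Gfap, Slc17a7, Grin2b, Grin2a, Nrgn and Mbp, were then brain-high, against 45.4% of all sites. The windows of several of the 33 overlap. Nrgn had the most brain tags of the 6. At chr9:37544751-37545097, near the end of the gene, it held 24 tags in brain and 2 in lung, 4 in kidney, 4 in liver, 58 in 2,700,000 and 10 in 270,000 liver cells, which is 25.9 (16.6 to 38.6) per 1,000,000 tags in brain and 10.1 in liver, the next organ. Grin2b at chr6:135828057-135828313 held 22, 6, 0, 4, 87 and 0 tags, with 2.35 times as many per 1,000,000 tags in brain as in the next organ. Of its brain tags 20 were spread tags.

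Within Rbfox3, 2 loci were brain-high. At chr11:118507913-118508227 the tags were 18, 3, 13, 0, 216 and 14, all 18 brain tags being spread tags, and at chr11:118775723-118776050 they were 12, 0, 6, 0, 166 and 0, with 2 spread tags in brain. The ratios to the next organ were 2.16 and 3.12. Grin1 at chr2:25292848-25293333, which is also in the long noncoding RNA Grin1os, held 15, 2, 8, 0, 368 and 2 tags. Grin2a at chr16:9993736-9993996 held 10, 0, 2, 0, 14 and 2 tags, a ratio of 7.80, and its 10 brain tags were in 1 forward peak. All 6 loci had tags in 2,700,000 liver cells, so none was a place where brain alone had tags, and 4 of them were also tagged in 270,000 cells.

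At the remaining loci with at least 10 brain tags another organ came within 2-fold of brain or above it. Slc17a7 had a locus 1585 bp upstream of its start, at chr7:45162236-45162488, with 21 tags in brain and 13 in lung, 10 in kidney, 2 in liver and 66 in 2,700,000 cells, all of the brain tags being spread. Inside the same gene, at chr7:45173839-45174039, the tags were 7 in brain, 27 in lung and 0 in kidney and liver, so the same gene held a locus tagged in all organs and another with most tags in lung. Lung had the most tags per 1,000,000 tags at both Camk2a loci, with 24 and 25 tags where brain had 17 and 13. It also did at Shank3, chr15:89530326-89530650, with 27 tags in lung, 16 in brain and 2 each in kidney and liver. The locus upstream of Tubb3, which takes in the Mc1r promoter printed above, had 11 tags in brain and 24 in lung, 5 in kidney, 13 in liver and 207 in 2,700,000 cells. It lies 4557 bp before the start of Tubb3 and 86 bp before Mc1r, so it cannot be assigned to either gene by distance alone.

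The locus inside Th, at chr7:142894568-142895041, had pairs in 5 of the 6 libraries, with 9 tags in brain and 19 in lung, 10 in kidney, 2 in liver, 301 in 2,700,000 and 5 in 270,000 cells. Rbfox3 had the most loci of any member, 19, of which 10 had brain tags. Around its middle, at chr11:118738428-118738691, brain had 16 tags, lung and kidney 0, and liver 4. Less than 1 kb away, at chr11:118738975-118739234, brain had 8 tags, lung 0, kidney 19 and liver 0. At chr11:118742907-118743167 the tags were 18, 18, 12 and 4. The organs thus differed between neighbouring loci of the same gene, with small counts throughout.

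**Figure D3:**
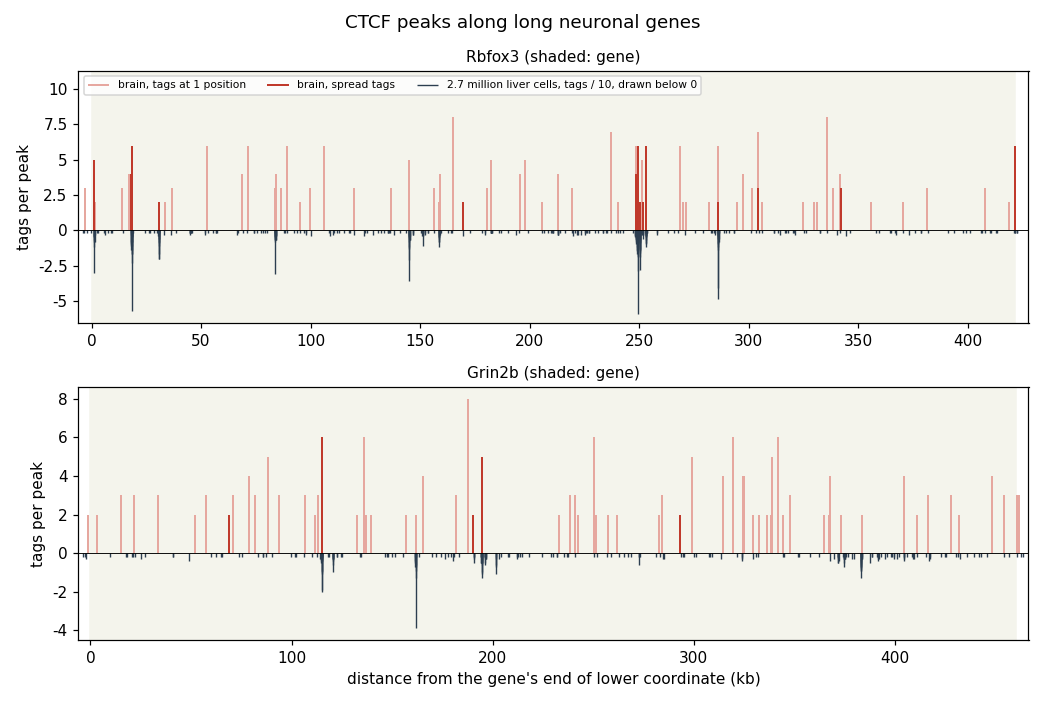
CTCF peaks along Rbfox3 and Grin2b, with the distance in kb from the end of lower coordinate on the horizontal axis and tags per peak on the vertical axis, for brain (above 0, pale: tags at 1 position, dark: spread tags) and for 2,700,000 liver cells (below 0, tags divided by 10). Spread brain tags stand mostly where liver cells have their tall peaks, while peaks of 1 position are scattered along the genes.

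Strong loci of liver cells were not all tagged in brain. Inside Slc1a2, at chr2:102675371-102675571, 2,700,000 liver cells had 272 tags, and brain, lung and kidney had 0, with 2 in liver. Beyond the end of Dlg4, inside Asgr1, which encodes a receptor of hepatocytes, at chr11:70049772-70050035, they had 252 tags and 270,000 cells had 7, with 0 in all 4 organs, the liver library included. Gad2 had loci of 113 and 127 tags in 2,700,000 cells, with 0 in brain at both. In Stmn2, at chr3:8513756-8513956, brain had 9 tags, all of them spread, where the other organs had 0 and 2,700,000 cells had 76, which is 9.73 and 12.7 per 1,000,000 tags. In Syt1 at chr10:108665892-108666092 brain had 9 tags and 2,700,000 cells 2, and in Bdnf at chr2:109693460-109693660 brain had 6 tags and no other library had any, but these brain tags were all at 1 position.

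Brain tags were listed at a larger share of the member sites than of CTCF sites in general, by more than the counting interval. Of the 181 sites 98 had brain tags, or 54.1% (46.9 to 61.2, Wilson), against 42.2% of all sites and 45.1% of the 62285 sites at protein-coding genes. Windows moved by 5 kb had brain tags in 1.10% and 3.03%. The members' share was 30.4% in lung (all sites 32.8%), 30.9% in kidney (30.2%), 21.5% for liver (17.2%) and 30.9% in 270,000 cells (32.5%). Counted as loci, which do not share tags, brain had tags at 59 of 119 or 49.6% (40.8 to 58.4) against 36.1% in the genome. A pair in 2,700,000 liver cells was then required, a choice that needs no brain pair, although brain pairs also helped to place the sites. Among such loci brain had tags at 49.1% (40.1 to 58.2) of 114 against 36.3%. With spread tags alone this was 34.2% (26.1 to 43.3) against 24.4%. These intervals take loci as independent, which loci of the same gene need not be, and the result rests on 1 brain library.

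The difference was largest in the next to weakest group of sites by tags in 2,700,000 liver cells. Among sites with 10 to 29 tags in 2,700,000 liver cells, 18 of 41 or 43.9% (29.9 to 59.0) of the members' had brain tags against 22.2% of all sites, whereas lung had 7.32% against 16.5%. At the same sites liver had 14.6% (6.88 to 28.4) against 7.57%, and kidney 19.5% (10.2 to 34.0) against 15.6%. With spread tags alone brain had 24.4% (13.8 to 39.3) of these member sites against 10.8% of all such sites. Among those of 30 to 99 tags brain had 60.6% (48.5 to 71.5) against 49.6%, and at 100 tags or more 77.8% (63.7 to 87.5) against 76.9%. Below 10 tags brain had 17.2% (7.60 to 34.5) against 12.2%. In kidney the share of members' sites at 100 tags or more was 66.7% (52.1 to 78.6) against 55.2%. By role, the share with brain tags ran from 37.5% of 16 sites for the presynaptic vesicle to 66.7% of 18 sites for astrocytes, apart from Bdnf with 3 sites, and these intervals overlap. The shares by strength and by role are by site and not by locus. Windows of neighbouring sites, such as those of Grin2a at chr16:9993836 and chr16:9993896, share tags, while the intervals take sites as independent.

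**Figure D4:**
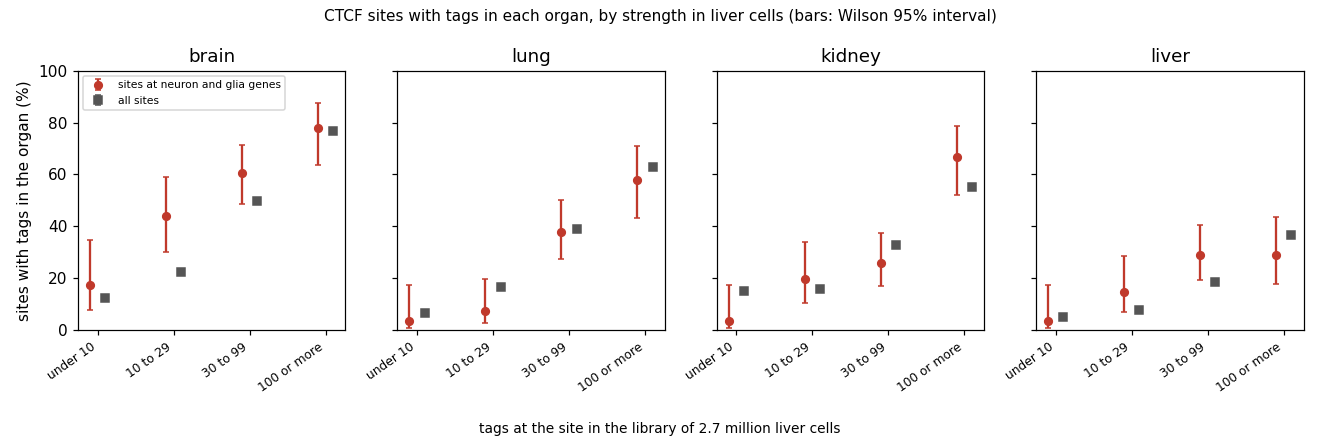
Percent of CTCF sites with tags in brain, lung, kidney and liver, by the number of tags at the site in 2,700,000 liver cells, for sites at neuron and glia genes (circles, bars: Wilson 95% interval) and for all sites (squares). In brain the members' share at 10 to 29 tags is 43.9% against 22.2% for all sites, and the shares are alike at 100 tags or more.

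Other gene lists give a scale for these shares, beside the 45.1% of sites at all protein-coding genes. Brain tags were at 50.8% of 187 sites of 40 other neural genes, 44.0% of 91 sites of 30 liver genes, 48.6% of 109 sites of 30 kidney genes and 51.6% of 95 sites of 30 lung genes, so the members were the highest of these lists with overlapping intervals. Sites with at least 5 tags in brain and none in the other 3 organs numbered 14, or 7.73% of the member sites against 4.25% of all sites. Most of these 14 had no spread tags in brain. Some lay in loci where another organ had tags close by. The Grin2b site at chr6:135907616, for example, lay beside a site at chr6:135907694 with 25 lung tags. There were 6 of that kind for kidney (3.31% against 2.46% of all sites), 3 for lung (1.66% against 3.69%) and 1 for liver (0.552% against 0.135%). No organ had tags at 56 of the 181 sites (30.9%), against 39.7% of all sites, and all 4 had them at 15 (8.29%) against 6.25%. The library of 27,000 liver cells had tags at 0 of the 181 member sites, with a Wilson upper bound of 2.08%, and at 1.12% of all sites.

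Spread peaks of brain at the members mostly had the strand layout by which sites are defined. At member sites with a pair in 2,700,000 liver cells, 44 spread forward peaks of brain lay to the left of the centre and 20 to the right, or 68.8% left against 59.4% over all sites. Of the spread reverse peaks 30 lay left and 49 right, against 11942 and 17934 over all sites. Forward stops thus lay mostly upstream and reverse stops mostly downstream of the centre. Since sites were defined by this layout and brain pairs helped to place them, it can be partly built in.

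Against 2,700,000 liver cells the members moved in both directions. Of 32 members with at least 20 tags in both libraries together, 7 had at least 2 times as dense tags in brain, where 23.8% of 31603 genes did, and 7 had at most 0.5 times, where 23.8% did. Both shares, 21.9%, are near those of all genes. The higher genes were Map2 with a ratio of 4.38 (3.37 to 5.67), Snap25 with 3.59 (2.55 to 5.01), Gria2 with 2.59 (1.75 to 3.78), Bdnf with 2.45 (1.65 to 3.58), Nlgn1 with 2.28 (1.98 to 2.62), Syt1 with 2.21 (1.89 to 2.58) and Mog with 2.06 (0.744 to 5.00). The interval of Mog spans equality. The lower genes were Dlg4 with 0.22 (0.113 to 0.390), Syp with 0.244 (0.097 to 0.513), Gad2 with 0.311 (0.172 to 0.520), Th with 0.372 (0.217 to 0.597), Olig2 with 0.389 (0.078 to 1.20), Grin1 with 0.415 (0.270 to 0.612) and Aldoc with 0.463 (0.122 to 1.25). Those of Olig2 and Aldoc span equality.

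**Figure D5:**
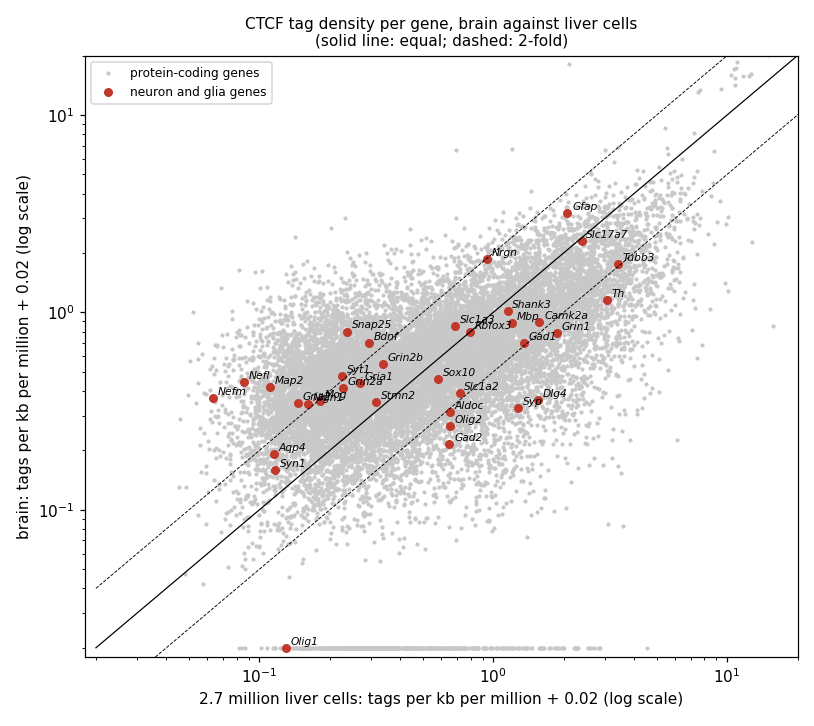
CTCF tag density of each protein-coding gene (grey) and of the neuron and glia genes (red, named) in brain against 2,700,000 liver cells, both in tags per kb per 1,000,000 tags plus 0.02 on log axes, with lines at equality and at 2-fold. The members lie on both sides within the cloud of all genes, with Map2 and Snap25 above the upper and Dlg4 and Syp below the lower 2-fold line.

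The higher genes had most of their brain tags outside sites. Their windows had a median of 133 kb, from 22.7 kb for Mog to 921 kb for Nlgn1, against 24.7 kb for the lower ones, and 8.22% of their 742 brain tags were at loci, against 30.2% of the 86 brain tags of the lower genes. In 2,700,000 liver cells the same shares were 36.1% and 82.3%. Of the brain tags of the higher genes 93.9% were at 1 position. When spread tags alone were compared, the ratio stayed above 2 for Map2 at 3.80 (1.33 to 8.88), from 6 brain tags, and Snap25 at 3.24 (1.25 to 7.05), from 7. It was 1.51 (0.969 to 2.26) for Nlgn1, lay between 0.301 and 4.59 for Gria2 with 3 brain tags, turned to 0.28 (0.076 to 0.722) for Syt1, and Bdnf and Mog had 0 spread tags in brain. On this measure Nrgn at 5.67 (3.17 to 9.58), Slc17a7 at 3.64 (2.47 to 5.20), Stmn2 at 3.07 (1.36 to 6.08) and Gfap at 2.73 (1.61 to 4.37) were also above 2, while Rbfox3 at 1.36 (1.06 to 1.71), Mbp at 1.57 (1.10 to 2.16) and Camk2a at 0.870 (0.512 to 1.39) were not. Of 29 members with at least 20 spread tags in both libraries together, 6 were at least 2 times as dense in brain, where 18.4% of all genes were. At most 0.5 times as dense were 10 of the 29, where 51.1% of all genes were. Among these 10 were Slc1a2 at 0.229 and Dlg4 at 0.186, and Syp and Gad2 with 0 spread tags in brain.

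The library of 270,000 liver cells has a share of peaks at 1 position close to that of the organs, 76.0%, and against it fewer members were past the limit. Of 25 members 3 had at least 2 times as dense tags in brain, where 19.7% of 16840 genes did: Snap25 with 4.28 (1.95 to 11.1), Slc17a7 with 3.09 (1.44 to 7.56) and Gfap with 2.34 (1.27 to 4.66). The number with at most 0.5 times was 1, Dlg4 with 0.287 (0.129 to 0.605), where 13.6% of genes were. Map2 was level at 1.05, with an interval that spans equality. Gria2 had 1.17 (0.654 to 2.16), Bdnf 1.08 (0.608 to 1.98), Nlgn1 1.51 (1.19 to 1.93) and Syt1 1.45 (1.12 to 1.90). The size of the difference between brain and liver cells over these genes thus depended on the liver cell library, while Snap25 and Dlg4 were past the limit on the same side with both. Dlg4 was past it with neither library over the gene alone, and 252 of its 353 tags in 2,700,000 cells were at the locus inside Asgr1. Against 270,000 cells Snap25 was not past it with 20 kb on each side or without peaks of 1 position.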

How the data were processed

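CTCF ChIP-exo 5.0 libraries of mouse tissue and liver cells were analysed from the deposited peak lists. The authors aligned the reads, kept unique alignments, removed PCR duplicates and called peaks on each strand, and deposited for each peak an unnormalized count of tags and, as a spread in bp, the standard deviation of where they lay. The submitters' processing notes name BWA 0.7.9a, bcl2fastq 2.16 and mm10. The study's methods describe alignment and duplicate removal for yeast and human reads, and the deposited lists name GeneTrack as the source of the peaks.

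From the deposited counts, tags were summed over each gene with 5 kb on each side. Left out were 13 bins (10 kb each, all 6 larger libraries listing 20 or more peaks there), the mitochondrial genome and unplaced sequence, which held between 5.79% of all listed tags in lung and 36.9% in 27,000 liver cells. Forward and reverse peaks were paired richest first, 10 to 80 bp apart, and pairs within 50 bp were merged to sites. Genes were compared where the libraries held at least 20 tags together, and sites where brain held at least 10. Past the limit means 2-fold. No test across libraries was possible. Intervals are exact Poisson for densities, exact binomial for ratios and Wilson for shares. Gene positions and promoters came from RefSeq, without exons.

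Values are given for every member past the limit, the 3 highest and 3 lowest in brain, the locus with most organ tags of each gene where brain held at least 10, and the brain-high loci. Further loci, such as those of Rbfox3, Slc1a2, Dlg4, Gad2, Stmn2, Syt1 and Bdnf, were chosen after their values were seen. The members and gene lists were chosen with earlier results of these data known. Chaining sites into loci, the protein-coding background and the comparison of spread tags per gene were added after the data were seen. The steps were tested on simulated data. Scripts ran in Python 3.11.15 with scipy 1.17.1, pandas 2.3.3, numpy 2.4.6 and matplotlib 3.10.9.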

Additional observations from a re-analysis of the deposited data

How the results depend on the processing

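With 1 library per condition no replicate could be left out. No paired analysis was possible because no result comes from a test. Of 65 recomputed values 36 stayed within 1.5 times or within the interval of the reported one. Without peaks of 1 position, brain-high sites rose from 7 of 33 to 17 of 24, against 45.4% of all sites, and with at least 5 brain tags there were 24 of 66 (33.2%). In brackets here are shares of all features. Scaled to tags at shared sites there were 2 of 33 (19.9%), members above 2,700,000 cells rose to 15 of 32 (44.8%) and those below fell to 2 (12.04%). Members above 270,000 cells numbered 5 with all listed tags (25.2%), with peaks of 1 position as 1 tag (19.97%) and without such peaks (31.8%). Those below numbered 2 with 20 kb on each side (13.2%), and 0 over the gene alone (12.6%) and with peaks of 1 position as 1 tag (11.1%). Above all other organs were 2 of 30 at 1.5-fold (Map2 and Snap25; 7.33%), 1 over the gene alone (Gfap; 2.85%), 2 of 25 with peaks of 1 position as 1 tag (Gfap and Slc1a3; 5.91%) and 1 of 13 without such peaks (Mbp; 11.8%). Below all other organs were 2 at 1.5-fold (Dlg4 and Mog; 9.16%), 2 with 20 kb (Mog and Olig1; 4.77%), 1 with shared-site scaling (Mog; 10.6%) and 1 without peaks of 1 position (Syt1; 2.95%). The share of member sites with tags within 50 bp was 43.1% for brain, 14.4% for liver, 19.9% for kidney and 20.4% for lung. No share of all sites is given for this setting. Without peaks of 1 position, the share of member sites with tags was 38.7% for brain (29.3%) and 12.7% for liver (11.7%). It was 16.02% for kidney (12.7%) and 15.5% for lung (15.4%), so brain was also the highest organ over all sites. In 2,700,000 cells it was 92.8% (96.1%) and in 270,000 cells 22.1% (23.6%). The cause was not tested. The depth limits most single loci, which hold under 20 brain tags.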
